A study of Mus musculus with 6 samples.

Results

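The transcription factor p53, encoded by *Trp53* in the mouse, and 9 genes of its DNA damage response were examined in the liver of mice fed a high-fat diet (HFD) with or without esculetin, a plant coumarin. The 10 genes were *Trp53*, *Mdm2*, *Cdkn1a*, *Ccng1*, *Btg2*, *Gadd45a*, *Gadd45b*, *Phlda3*, *Eda2r* and *Trp53inp1*. They were chosen by name from the p53 pathway, with earlier results of these data known. Each was found by its Ensembl identifier among the 55357 genes counted. All 10 had enough counts to be tested, among 14433 genes tested in all. The data were 6 liver RNA sequencing libraries, 3 from vehicle-treated and 3 from esculetin-treated mice, and each library was made from 2 mice. The animals were wild-type C57BL6/J males, 8 to 9 weeks old. Both groups were gavaged each day for 7 days, ate a control diet (10% of kcal from fat) on the first 4 days and the HFD (60% of kcal from fat) on the last 3. The vehicle group received 2.5% Tween-80. For the esculetin group the sample names and the treatment protocol give 180 mg/kg/d but the treatment field gives 90 mg/kg/d, so the dose is not settled here and the group is called esculetin.

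In resting cells p53 protein is kept low by the ubiquitin ligase Mdm2, and damage signals release it from Mdm2, so that p53 is controlled largely at the protein level and its mRNA need not change when it becomes active. Active p53 binds a response element made of a pair of adjoining decamers and switches on genes that halt the cell cycle, aid repair, or favor survival or death. In the liver, an organ whose cells rarely divide, these genes are known for their response to genotoxic drugs, feeding state and hepatocyte stress, and several of them are also driven by other transcription factors.

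Library depth ranged from 27957713 to 34920922 counts, with the 3 esculetin libraries all deeper than the 3 vehicle libraries. In these libraries a floor of 3 counts corresponded to between 0.0864 and 0.109 CPM, the unit of counts divided by the normalized library total, and such a floor covers counting error only. Of counts between 1 and 10, between 70.7% and 72.9% were even in each library, so counts are not independent fragments and counting error is larger than the numbers imply. Mitochondrial transcripts took 7.31% to 7.62% of the counts in vehicle libraries and 6.87% to 7.26% in esculetin libraries. Hepatocyte markers such as *Alb* summed to between 81810 and 84849 CPM in vehicle and between 78564 and 85947 CPM in esculetin libraries. In bulk liver, fewer cells of a type and less RNA per cell cannot be told apart.

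*Cdkn1a*, *Phlda3* and *Eda2r* were higher after esculetin, and p53 itself and its inhibitor *Mdm2* differed by little between the groups. Genes were called where the fold change passed 1.5 and the p-value, before adjustment, was below 0.05, the limits the study used. By this rule 3 of the 10 genes were called, all of them higher. Over all genes tested the same rule called 452 genes, or 3.13%, with 1.37% higher and 1.76% lower. Because the 10 genes were chosen with earlier results of these data known, such shares are a background and not a test. An unadjusted p-value under 0.05 was reached by 4 of the 10 genes, *Ccng1* being the other one, against 11.9% of all genes tested. None of the 10 genes had a Benjamini-Hochberg adjusted p-value under 0.05 in edgeR's quasi-likelihood test, against 6 of all genes tested, or 0.0416%. Limma-voom likewise gave 0 of the 10 genes at that level and 4 at an unadjusted p-value under 0.05. DESeq2 also gave 4 at an unadjusted p-value under 0.05, but it gave an adjusted p-value to 7 of the 10 genes, of which 0 were under 0.05, and none to *Phlda3*, *Eda2r* and *Gadd45b*. Over all genes tested, DESeq2 had 193 with an adjusted p-value under 0.05. The values of the esculetin group lay wholly above those of the vehicle group for 4 genes and wholly below them for 0, where 9.2% of all genes tested lay wholly above and 8.24% wholly below. The median log2 fold change of the 10 genes was 0.11 and 6 were positive, against a median of -0.01 and 48.5% positive over all genes. These p-values weigh the group difference against the spread between libraries, each a pool of 2 mice, and not against the spread between single mice.

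**Figure D1:**
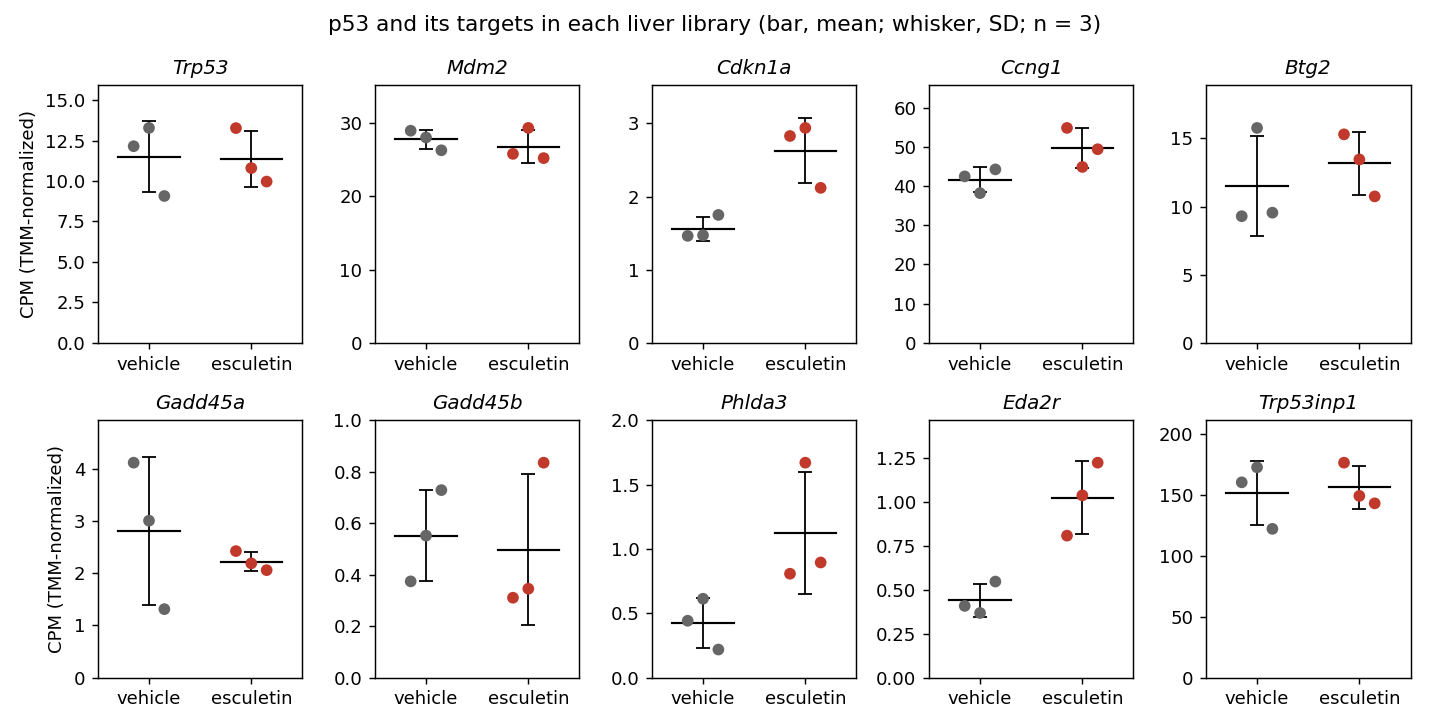
TMM-normalized CPM of each of the 10 genes (vertical axes, linear and starting at 0) in the 3 vehicle (grey) and 3 esculetin (red) libraries, with the mean as a bar and the SD as whiskers. The points of *Cdkn1a*, *Ccng1*, *Phlda3* and *Eda2r* are separate between the groups, and those of the other 6 genes overlap.

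Sequences resembling the p53 response element were found near the start sites of 3 of the 10 genes and are shown because they are the sequence feature that p53 target genes are known for. The windows reached 3000 bases to either side of the canonical start site in GRCm39. The motif searched was a pair of adjoining decamers with no spacer, in which the C and G of both cores were fixed (CNNGNNNNNNCNNG) and at most 2 of the other 16 positions could depart from the consensus. The motif is its own reverse complement, so both strands are covered, and the capitals mark the core of each decamer.
Cdkn1a, upstream, at -2827 from the start site, chr17:29309902-29309921, plus strand: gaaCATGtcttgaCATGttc
Ccng1, upstream, at -160 from the start site, chr11:40646289-40646308, minus strand: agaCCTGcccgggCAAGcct
Ccng1, intronic, at 366 from the start site, chr11:40645763-40645782, minus strand: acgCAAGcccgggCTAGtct
Eda2r, exonic, at 690 from the start site, chrX:96420140-96420159, minus strand: gggCAAGtccgggCCTGtgt
The *Cdkn1a* and *Ccng1* sequences departed from the consensus at 1 position each and the *Eda2r* sequence at 2 positions. With 1 mismatch allowed, 2 of the 10 windows held a match, against 4 of 32 windows (12.5%) of other p53 targets and 130 of 12590 (1.03%) of all protein-coding genes tested. With 2 mismatches allowed, a limit set after a limit of 1 had been tried, the counts were 3 of 10, 10 of 32 (31.2%) and 835 of 12590 (6.63%). A match is a description of the letters in the window. *Phlda3*, which was called, had no match in its window.

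Expression of *Trp53*, at chr11:69469669-69482701 on the plus strand, was 12.2, 13.3 and 9.08 CPM in vehicle replicates 1 to 3 and 13.3, 10.8 and 9.97 CPM in esculetin replicates 1 to 3. The ranges overlapped almost fully, and vehicle replicate 3 was the lowest of the 6 libraries. The means were 11.5 ± 2.18 and 11.4 ± 1.72 CPM (SD, n = 3 libraries each), and the log2 fold change was -0.02 (SE 0.166), with an adjusted p-value of 0.975 in edgeR's quasi-likelihood test. The 95% interval of the fold change ran from 0.762 to 1.27. *Trp53* shares 263 exon bases with *Wrap53* on the opposite strand, and because the strand setting of the counting is not given, the reads there cannot be assigned. *Wrap53*, which has a role in telomerase RNA trafficking, had a log2 fold change of 0.10 (adjusted p = 0.835 in the same edgeR fit).

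*Mdm2* (chr10:117524780-117546730, minus strand) encodes the ligase that marks p53 for degradation and is itself a p53 target, so that it closes a feedback loop. Its values were 29.0, 28.0 and 26.3 CPM in vehicle and 25.8, 29.3 and 25.2 CPM in esculetin libraries. An esculetin library was the highest and another the lowest of the 6. The means of 27.8 ± 1.36 and 26.8 ± 2.23 CPM differed by less than the spread between libraries, with a log2 fold change of -0.05 (SE 0.0918) and an edgeR adjusted p-value of 0.869. *Mdm2* had the narrowest interval of the 10 genes, a fold change between 0.837 and 1.11.

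Among the 5 genes tied to arrest of the cell cycle, *Cdkn1a* was called and *Ccng1* passed the p-value but not the fold threshold. *Cdkn1a* (chr17:29309936-29319701, plus strand) encodes p21, an inhibitor of cyclin-dependent kinases. It measured 1.46, 1.47 and 1.75 CPM in vehicle libraries and 2.83, 2.94 and 2.12 CPM in esculetin libraries. Every esculetin library lay above every vehicle library, and esculetin replicate 3 lay nearest to the vehicle values. The mean went from 1.56 ± 0.163 to 2.63 ± 0.445 CPM, a fold change of 1.68 with an interval from 1.17 to 2.43 (log2 fold change 0.75, SE 0.235). The p-value was 0.00991 and the adjusted p-value 0.264 in edgeR's quasi-likelihood test. These values rest on 43, 48 and 48 counts in vehicle and 91, 102 and 71 counts in esculetin libraries. The antisense transcript *Dino*, which shares 504 exon bases with *Cdkn1a*, had 0 counts in all 6 libraries.

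*Ccng1* (chr11:40639377-40646148, minus strand) encodes cyclin G1, a long-known p53 target that takes part in feedback on p53. Its values were 42.5, 38.2 and 44.2 CPM in vehicle libraries and 54.8, 44.9 and 49.4 CPM in esculetin libraries. The groups did not overlap, but the lowest esculetin library lay just above the highest vehicle library. The mean went from 41.6 ± 3.12 to 49.7 ± 4.99 CPM (fold change 1.19, interval 1.03 to 1.39). The log2 fold change was 0.26 (SE 0.0965), and edgeR's test gave an unadjusted p-value of 0.0250 and an adjusted p-value of 0.347. Without vehicle replicate 2 the p-value became 0.0963 and without esculetin replicate 1 it became 0.103. *Nudcd2* shares 114 exon bases with *Ccng1* on the opposite strand and had a log2 fold change of 0.02 (adjusted p = 0.962, edgeR).

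*Btg2* (chr1:134002908-134015033, minus strand) encodes an antiproliferative cofactor of mRNA deadenylation. It stood at 9.29, 15.8 and 9.55 CPM in vehicle and 15.3, 13.5 and 10.7 CPM in esculetin libraries. Vehicle replicate 2 was the highest of the 6 and the other vehicle libraries were the lowest. The means were 11.5 ± 3.67 and 13.2 ± 2.29 CPM, with a log2 fold change of 0.19 (SE 0.212) and an adjusted p-value of 0.778 in edgeR's test. Without vehicle replicate 2, the log2 fold change was 0.49 and the p-value 0.0201.

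*Gadd45a* and *Gadd45b* encode small stress proteins that bind PCNA and p21 and activate stress kinase signaling, and *Gadd45b* is better known as a target of NF-κB than of p53. *Gadd45a* (chr6:67012070-67014441, minus strand) measured 4.12, 3.01 and 1.31 CPM in vehicle and 2.42, 2.19 and 2.06 CPM in esculetin libraries. The vehicle libraries spanned the whole range, and the esculetin libraries lay close together inside it. The log2 fold change was -0.34 (SE 0.352), the interval of the fold change ran from 0.457 to 1.36, and the adjusted p-value was 0.753 in edgeR's test. The value turned on the vehicle libraries. Without vehicle replicate 1 the log2 fold change was 0.031, with the direction reversed. Without vehicle replicate 3 it was -0.68 and edgeR's unadjusted p-value was 0.0199, which meets the call rule as lower. The long noncoding RNA *E230016M11Rik*, which shares 990 bases with *Gadd45a* on the opposite strand, had 61, 45 and 22 counts in vehicle and 29, 40 and 37 counts in esculetin libraries.

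*Gadd45b* (chr10:80764523-80768038, plus strand) was at 0.374, 0.552 and 0.729 CPM in vehicle and 0.311, 0.346 and 0.836 CPM in esculetin libraries. Esculetin libraries were both the highest and the lowest. The counts were between 10 and 28 per library, and the log2 fold change of -0.14 (SE 0.504) had the widest interval of the cell cycle genes, a fold change between 0.414 and 1.98.

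The remaining genes act in death and survival signaling, and 2 of these 3 were called, both higher, where 1.37% of all genes tested were called higher. *Phlda3* (chr1:135693809-135697686, plus strand) encodes a pleckstrin homology domain protein that competes with Akt for membrane lipids. It was at 0.442, 0.613 and 0.219 CPM in vehicle libraries and 0.808, 1.67 and 0.895 CPM in esculetin libraries. All esculetin libraries lay above all vehicle libraries, with esculetin replicate 2 far above the rest. The mean went from 0.425 ± 0.198 to 1.13 ± 0.475 CPM, a fold change of 2.61 (interval 1.27 to 5.37) and a log2 fold change of 1.38 (SE 0.466). The p-value was 0.0145 and the adjusted p-value 0.294 in edgeR's test. The counts were 13, 20 and 6 in vehicle and 26, 58 and 30 in esculetin libraries, and only the esculetin libraries were all above the filter on low counts, at 0.309 CPM. The call was lost without vehicle replicate 3 (log2 fold change 1.09, unadjusted edgeR p-value 0.0513) and without esculetin replicate 2 (0.98, unadjusted edgeR p-value 0.0869).

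*Eda2r* (chrX:96320270-96420847, minus strand) encodes a death-domain-lacking receptor of the TNF receptor superfamily that binds ectodysplasin A2. It was at 0.408, 0.368 and 0.547 CPM in vehicle libraries and 0.808, 1.04 and 1.22 CPM in esculetin libraries. Every esculetin library lay above the vehicle range, esculetin replicate 1 nearest to it. The mean went from 0.441 ± 0.0937 to 1.02 ± 0.208 CPM, a fold change of 2.32 with an interval from 1.32 to 4.10 (log2 fold change 1.22, SE 0.366). It had the lowest p-value of the 10 genes, 0.00812, with an adjusted p-value of 0.252 in edgeR's test. The underlying counts were 12, 12 and 15 in vehicle and 26, 36 and 41 in esculetin libraries. *Eda2r* and *Cdkn1a* were called in all 16 alternative fits, and *Phlda3* in 13 of the 15 fits that tested it.

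*Trp53inp1* (chr4:11156412-11175230, plus strand) encodes a stress-induced nuclear protein that acts in p53-dependent death and in autophagy. Its values were 160.0, 172 and 122 CPM in vehicle libraries and 176, 149 and 143 CPM in esculetin libraries. Vehicle replicate 3 was the lowest and the remaining libraries were mixed. The means of 151 ± 26.3 and 156 ± 17.7 CPM gave a log2 fold change of 0.04 (SE 0.131), with an edgeR adjusted p-value of 0.937. The fold change had an interval between 0.840 and 1.26.

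**Figure D2:**
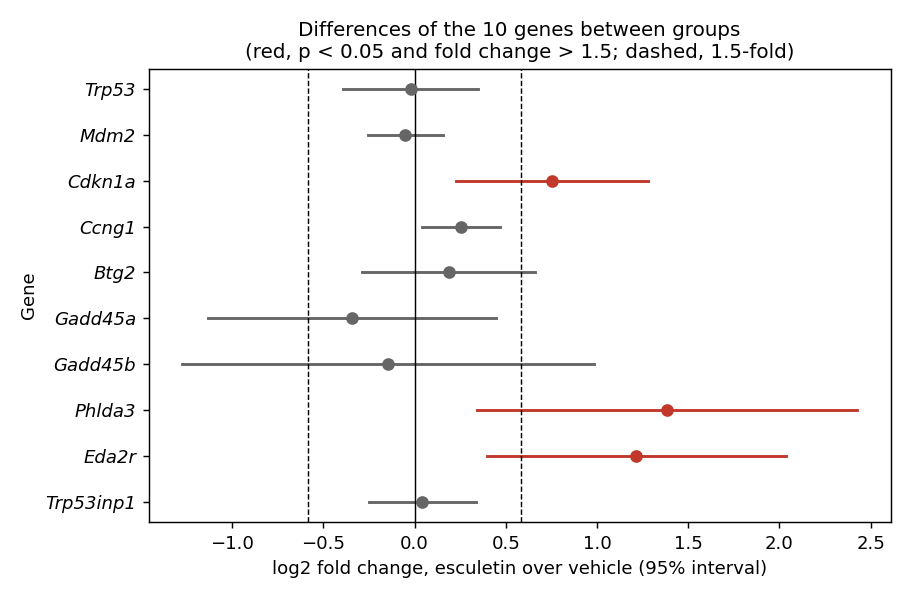
Log2 fold change of esculetin over vehicle (horizontal axis) for each of the 10 genes, with its 95% interval from edgeR, and dashed lines at a fold change of 1.5 in each direction. *Cdkn1a*, *Phlda3* and *Eda2r* (red) were called, the interval of *Ccng1* lies above 0 but its estimate is inside the dashed lines, and the intervals of the other 6 genes include 0.

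Divided by exon length, as TPM (length-scaled counts as a share of the library), the levels of the 10 genes in vehicle liver differed greatly. *Trp53inp1* was the highest at a mean of 69.7 TPM, followed by *Ccng1* at 31.9 TPM and *Mdm2* at 12.1 TPM, and their ranges were separate. *Btg2* (6.22 TPM), *Gadd45a* (5.39 TPM) and *Trp53* (5.27 TPM) came next, and their ranges over the vehicle libraries overlapped. The lowest were *Cdkn1a* (0.868 TPM), *Gadd45b* (0.621 TPM), *Phlda3* (0.558 TPM) and *Eda2r* (0.197 TPM). *Cdkn1a* lay above the range of *Gadd45b*, *Gadd45b* and *Phlda3* overlapped, and *Eda2r* was below both. The 3 genes called were thus among the 4 lowest per length. In esculetin libraries their means were 1.43 TPM for *Cdkn1a*, 1.44 TPM for *Phlda3* and 0.453 TPM for *Eda2r*, while *Ccng1* stood at 37.3 TPM.

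**Figure D3:**
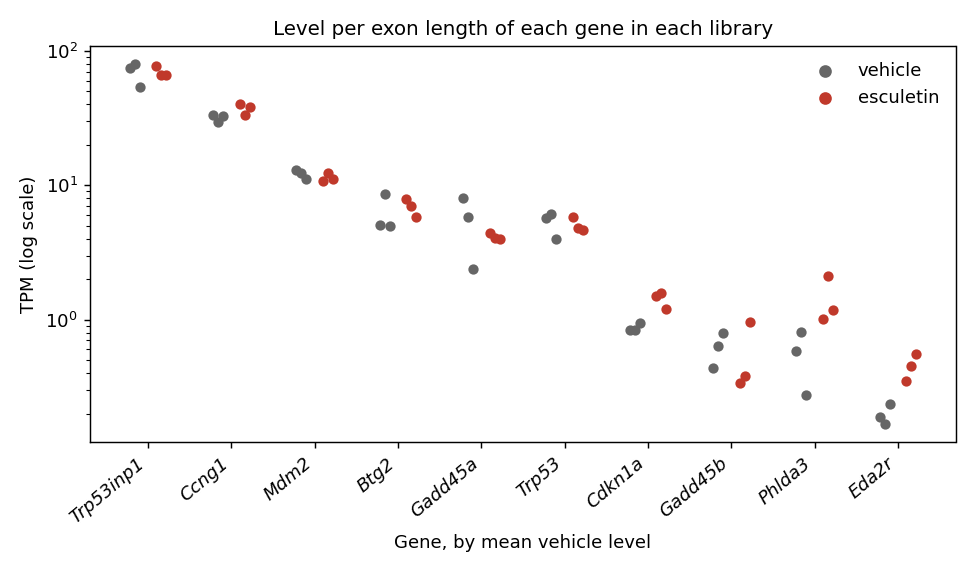
TPM of each of the 10 genes on a log axis in the vehicle (grey) and esculetin (red) libraries, ordered by the vehicle mean. The levels run from 69.7 TPM for *Trp53inp1* to 0.197 TPM for *Eda2r* in vehicle, and the groups are separate for *Cdkn1a*, *Ccng1*, *Phlda3* and *Eda2r*.

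On the CPM scale, the 10 genes did not share a leading library. By CPM, esculetin replicate 2 was the highest of the 6 libraries for 3 genes (*Mdm2*, *Cdkn1a* and *Phlda3*). Esculetin replicate 1 was the highest for *Ccng1* and *Trp53inp1*, and esculetin replicate 3 was the highest for *Gadd45b* and *Eda2r*. A vehicle library had the highest CPM for *Trp53*, *Btg2* and *Gadd45a*. By TPM the leader changed for *Mdm2*, with 12.9 TPM in vehicle replicate 1 against 12.5 TPM in esculetin replicate 2, and for *Trp53inp1*, with 80.1 TPM in vehicle replicate 2 against 77.5 TPM in esculetin replicate 1. Vehicle replicate 3, the shallowest library, had the lowest CPM of the 6 for *Trp53*, *Gadd45a*, *Phlda3* and *Trp53inp1*.

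Of 37 other known p53 targets, 32 were tested, and 1 was called higher and 0 lower, a share close to the 3.13% of all genes tested. The median log2 fold change of the 32 genes was 0.05, and 19 were positive. The gene called was *Gdf15*, a secreted stress hormone that is also a target of ATF4 and CHOP. *Gdf15* measured 0.476, 0.429 and 0.474 CPM in vehicle libraries and 2.18, 2.71 and 1.73 CPM in esculetin libraries. The groups were far apart, with a log2 fold change of 2.25 (SE 0.309), an unadjusted p-value of 3.03e-05 and an adjusted p-value of 0.0551 in edgeR's test. *Tnfrsf10b*, *Ak1*, *Psrc1*, *Ptprv* and *Ckap2* were too low to be tested. *Gdf15* was called in every alternative fit, and the other targets called came and went with the fit. Without vehicle replicate 1 the number called was 3 (*Bbc3*, *Epha2* and *Gdf15*), and without vehicle replicate 2 it was 2 (*Ddit4* and *Gdf15*). Without esculetin replicate 2 it was 2 (*Gdf15* higher and *Plk2* lower, the latter at a log2 fold change of -0.77). Without esculetin replicate 3 it was 3 (*Bbc3*, *Ddit4* and *Gdf15*). All of these but *Plk2* were higher. In the same 4 fits, in that order, 3.35%, 2.79%, 3.45% and 3.82% of all genes tested were called.

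By role, none of the 7 targets in DNA repair and nucleotide supply was called, with a median log2 fold change of 0.03. The smallest p-values among them were those of *Ercc5*, an excision repair nuclease (21.8 ± 2.34 to 17.3 ± 1.95 CPM, log2 fold change -0.34, adjusted p = 0.307, edgeR), *Rps27l* (log2 fold change 0.19, adjusted p = 0.440, edgeR) and the lesion-bypass polymerase gene *Polk* (log2 fold change -0.25, adjusted p = 0.506, edgeR). Of the 11 apoptosis targets 10 were tested and 0 were called, with a median of 0.12. *Ei24* went from 157 ± 9.71 to 180.0 ± 4.80 CPM (log2 fold change 0.20, adjusted p = 0.358, edgeR). *Perp*, a membrane effector of p53, had a log2 fold change of 0.18 (adjusted p = 0.482, edgeR). *Bbc3*, which encodes the BH3-only protein PUMA, went from 2.49 ± 0.935 to 3.78 ± 1.14 CPM with overlapping groups (log2 fold change 0.60, adjusted p = 0.496, edgeR). Of the 19 growth, stress and metabolism targets 15 were tested, with *Gdf15* called and a median of 0.07. *Ddit4*, an inhibitor of mTORC1, was at 14.0, 30.5 and 23.5 CPM in vehicle and 69.3, 33.9 and 19.3 CPM in esculetin libraries. Esculetin replicate 1 lay far above the rest, and the log2 fold change of 0.85 had an adjusted p-value of 0.454 in edgeR's test. *Tigar*, a fructose bisphosphatase, had a log2 fold change of -0.31 (adjusted p = 0.465, edgeR).

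**Figure D4:**
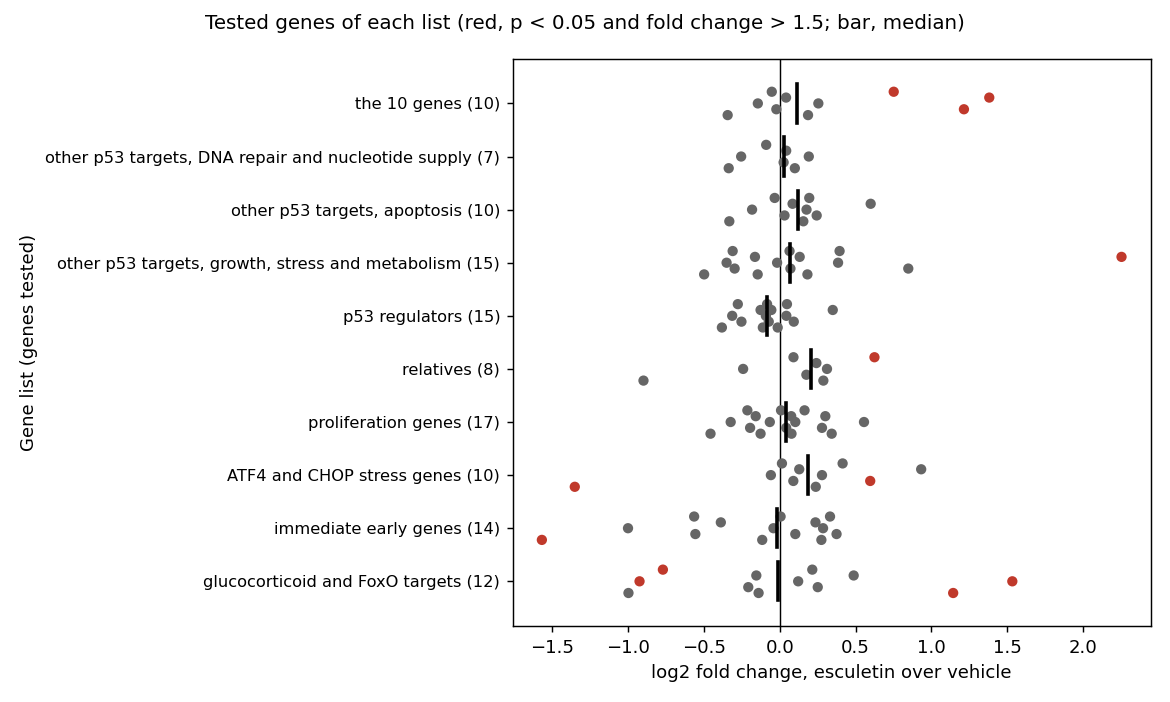
Log2 fold change of esculetin over vehicle (horizontal axis) for every tested gene of the 10 p53 response genes and of 9 other lists, with the number of genes tested in parentheses, called genes in red and the median of each list as a bar. The other p53 targets have 1 red point, *Gdf15*, at 2.25, and the p53 regulators have none.

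The 15 regulators of p53 were all tested and 0 were called. Their median log2 fold change was -0.08. Those with an unadjusted p-value under 0.05 were 3 of 15, all with lower means after esculetin, where 11.9% of all genes tested reached that level in either direction. None of them had an adjusted p-value under 0.05 in edgeR's test. *Mdm4*, which encodes the partner of Mdm2 that restrains p53, was at 54.2, 55.0 and 54.6 CPM in vehicle and 45.3, 41.7 and 50.5 CPM in esculetin libraries. The vehicle libraries were almost identical and every esculetin library lay below them (log2 fold change -0.25, SE 0.0855, adjusted p = 0.295, edgeR). The damage kinase genes *Prkdc* (log2 fold change -0.38, adjusted p = 0.347, edgeR) and *Atm* (-0.31, adjusted p = 0.360, edgeR) were the others.

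Of 12 relatives of the 10 genes, 8 were tested and 1 was called. *Ccng2*, which encodes cyclin G2 and is known as a FoxO target, was at 9.56, 10.8 and 13.7 CPM in vehicle and 15.8, 18.5 and 18.2 CPM in esculetin libraries. The groups did not overlap, and the log2 fold change was 0.63 (SE 0.142, adjusted p = 0.159, edgeR), beside 0.26 for *Ccng1*. *Btg1*, the relative of *Btg2*, had a log2 fold change of 0.24 (adjusted p = 0.398, edgeR), and *Trp53inp2*, the relative of *Trp53inp1*, one of -0.24 (adjusted p = 0.413, edgeR). The p53 family genes *Trp63* and *Trp73*, and *Phlda2* and *Edar*, were too low to be tested. The median of the 8 relatives was 0.21.

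Other lists, also chosen with earlier results of these data known, were measured in the same fit. Over all genes tested, 1.37% were called higher and 1.76% lower. None of the 17 tested proliferation genes was called, with a median log2 fold change of 0.04, beside the 1.68-fold higher level of *Cdkn1a*. Of 10 tested ATF4 and CHOP stress genes, *Cebpb* was higher (0.60, adjusted p = 0.175, edgeR) and *Asns* lower (-1.35, adjusted p = 0.246, edgeR), and the median was 0.18. Of 14 immediate early genes 1 was called, *Nr4a1*, which was lower (-1.57, adjusted p = 0.231, edgeR), and the median was -0.02. Of 12 glucocorticoid and FoxO targets, *Fkbp5* (1.14, adjusted p = 0.114, edgeR) and *Depp1* (1.53, adjusted p = 0.00181, edgeR) were called higher on the log2 scale. *Sgk1* (-0.77, adjusted p = 0.1725, edgeR) and *G6pc1* (-0.92, adjusted p = 0.204, edgeR) were called lower, and the median was -0.01. Several of these regulators are known to act on *Cdkn1a* and the *Gadd45* genes as well, and their part in the values of the p53 response genes was not tested.

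Markers of other liver cells were set beside the called genes. Summed Kupffer cell and macrophage markers lay between 368.8 and 486.8 CPM in vehicle and between 381.9 and 395.1 CPM in esculetin libraries, and 0 of 10 were called. Endothelial markers lay between 161 and 201 CPM and between 172 and 199 CPM, with 0 of 6 called. Stellate cell markers lay between 319 and 383 CPM and between 285 and 377 CPM, and 1 of 8, *Des*, was called higher. Cholangiocyte markers lay between 39.5 and 80.3 CPM and between 30.3 and 45.7 CPM, and 1 of 5, *Spp1*, was called lower. *Spp1* made up most of these sums, with means of 55.9 CPM in vehicle and 33.3 CPM in esculetin libraries. The log2 fold change was positive for 4 of the 5 markers, with a median of 0.24. Lymphocyte and neutrophil markers lay between 4.49 and 5.18 CPM and between 4.09 and 9.26 CPM, and *Cd79a* and *S100a9* were called higher among 8 tested of 10, with *Ly6g* at 0 counts. Adipocyte markers lay between 10.9 and 15.5 CPM and between 12.4 and 15.8 CPM, and *Cfd* was called higher among 3 tested of 7, with *Lep* and *Cidea* at 0 counts. The 3 called p53 response genes stood at 2.63 CPM or lower on average, and the part of these other cell types in their values was not tested.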

How the data were processed

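Liver RNA was sequenced in 6 libraries with NEBNext Ultra library preparation, 3 vehicle and 3 esculetin, grouped by the sample labels. The authors aligned reads to GRCm39 with HISAT2 2.2.1, used featureCounts to obtain gene counts, which were deposited as raw whole numbers. The submitters' processing notes also list the build mm10. The annotation release, strand setting and handling of multi-mapping reads are not given in the sources used here.

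Identifiers were matched to GENCODE M39 of GRCm39, which named 54749 of 55357. After TMM normalization, genes passing filterByExpr went into the quasi-likelihood fit of edgeR 4.0.16 (R 4.3.3), with group as the only term, and p-values were adjusted by Benjamini-Hochberg over the 14433 genes tested. Each standard error is the size of the log2 fold change over the root of its F statistic. The study's methods name limma, which was used here (limma 3.58.1, limma-voom and limma with trend) as an alternative, as was DESeq2 1.42.0, because the values are counts. TPM used the summed exon length of each gene.

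The 10 genes and all lists were chosen with earlier results of these data known. From the other lists, called genes were named and, for p53 targets, regulators and relatives, the 3 with the smallest p-values. The other p53 targets that became called under an alternative, and the overlapping antisense genes, were chosen for naming with their values in view. An exact permutation test of 3 against 3 libraries cannot go below 0.1 and was not used. Chi-square per gene between libraries within groups was 26.6 at the lowest, so no library was counted as a copy of another. Deviations of same-numbered libraries correlated at -0.07, -0.01 and 0.00. These values show no pairing over all genes together, but they cannot exclude a factor shared by same-numbered libraries in some genes. Alternatives covered test, normalization, filter, depth, replicate block, leaving out each library, and halved counts, which was added after the even counts were seen.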

Additional observations from a re-analysis of the deposited data

How the results depend on the processing

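The number of the 10 genes called was 3 in the fits with DESeq2, with both limma fits, under either other scaling, without a filter, with thinned libraries and with halved counts, and 2 with a minimum of 10 counts in every library, which did not test *Phlda3*, and 2 with a fold change over 2. It was between 2 and 3 when single libraries were left out, and not always the same genes: without vehicle replicate 3 the genes called were *Cdkn1a* and *Eda2r*, both higher, and *Gadd45a*, lower, and *Phlda3* was not called. The number with an unadjusted p-value under 0.05 was between 3 and 4, and with an adjusted p-value under 0.05 it was 0 in all 16 fits among the genes that had one. DESeq2 gave none to 3 genes (*Phlda3*, *Eda2r* and *Gadd45b*), the minimum of 10 counts left out *Phlda3*, and halved counts left out *Gadd45b*. With the replicate block, 3 genes were called, 4 had an unadjusted p-value under 0.05 and 0 an adjusted one, and no call among the 10 genes changed. Other p53 targets called numbered 1 in the main comparison, 3 with no filter (*Bbc3*, *Ddit4* and *Gdf15*), 2 with the replicate block (*Bbc3* and *Gdf15*) and between 1 and 3 with single libraries left out. Directions turned for 4 of the 10 genes, none of them called with all libraries, when a library was left out. The log2 fold change of *Trp53* was 0.02 without vehicle replicate 1, 0.10 without vehicle replicate 2, 0.01 without esculetin replicate 2 and 0.065 without esculetin replicate 3, over a range from -0.163 to 0.098. That of *Gadd45a* was 0.031 without vehicle replicate 1 and -0.675 without vehicle replicate 3. That of *Gadd45b* was 0.10 without vehicle replicate 3, 0.10 without esculetin replicate 1 and 0.063 without esculetin replicate 2, down to -0.735 without esculetin replicate 3. That of *Trp53inp1* was -0.09 without vehicle replicate 3 and -0.053 without esculetin replicate 1, up to 0.148 without vehicle replicate 2. The cause was not tested. Over all genes, 452 of 14433 tested (3.13%) were called in the main comparison and 776 of 24638 (3.15%) with no filter. Over the 16 alternative fits the share called lay between 2.76% (replicate block) and 3.96% (without vehicle replicate 3). The share with an unadjusted p-value under 0.05 lay between 8.45% (without vehicle replicate 2) and 12.55% (halved counts). Genes whose adjusted p-value was below 0.05 numbered 6 in the main comparison, 193 with DESeq2, 477 with no filter, 15 with the replicate block, and between 2 and 45 with single libraries left out. *Gadd45b*, *Phlda3* and *Eda2r* had the fewest counts, at 6 to 58 per library, and the parts of depth and of the spread between libraries in their intervals were not tested.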
